A study of Drosophila melanogaster with 4 samples.

Results

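The proteasome subunit genes of Drosophila melanogaster were followed in RNA from the brain's dvpdf neurons. They were taken by symbol: every gene whose name, case-sensitive, began with Prosalpha, Prosbeta, Pros and a digit, Rpn and a digit, or Rpt and a digit. This gave 41 of the 14161 gene symbols in the files. By the current RefSeq symbol, 13 of them were taken as paralogues, since it ends in T or R with or without a digit. The other 28 were taken as subunits of the common 26S proteasome. There were 4 libraries. In 2 of them, labelled NonA RNAi, nonA was targeted by RNA interference in the dvpdf cells, and 2 were labelled control. The gene nonA encodes a nuclear RNA-binding protein. The labels name no driver, no control genotype and no age, do not say what dvpdf stands for, and do not say whether replicates came from separate animals. Any p-value below is thus set against library-to-library spread alone, and that spread may be technical.

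The 26S proteasome is the protease that degrades proteins marked with ubiquitin. Its core particle is a barrel of stacked rings, with alpha subunits forming the outer rings and the gate, and beta subunits forming the inner rings that hold the proteolytic sites. The regulatory particle caps the barrel: its base contains a ring of ATPases that unfold the substrate, and its lid removes the ubiquitin chain. In clock neurons of the fly, the daily loss of the PER and TIM proteins passes through ubiquitin ligases and this protease.

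The reads assigned to genes came to between 8558125 and 9673275 in the NonA RNAi libraries and between 8419248 and 9832771 in the control libraries. Levels are given as CPM, the reads of a gene scaled to a common total of gene reads. A count of 0 allows up to 3 reads, which is between 0.305 and 0.356 CPM over the libraries. The RNA was amplified, so reads are not independent molecules and these limits cover counting error only. The targeted gene nonA had 168 and 283 CPM in the NonA RNAi libraries, against 256 and 241 CPM in the control libraries, so nonA was not lower in NonA RNAi replicate 2 than in the controls, and every direction below rests on the labels alone. Pdf, which encodes a neuropeptide of clock neurons, made up 1.84% and 8.66% of gene reads in the NonA RNAi libraries and 0.498% and 0.216% in the controls. Pdf reads count towards the common total and so lower the CPM of all other genes, most in NonA RNAi replicate 2. Of the 8 clock and pan-neuronal markers, 7 were matched in the files, and each of these had reads in every library.

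All but 1 of the common subunits had reads in every library, and the test called none of them different between NonA RNAi and control. Of the 41 members, 27 passed the filter on low values (mean RPKM 1 or more), all of them common subunits; 8 had no read in any library and 6 had few reads. The 27 tested members had between 316 and 2136 reads in each library. Their fitted log2 folds ran from -0.58 to 0.71, with a median of -0.02, beside a median of 0.02 over all 7248 genes tested. The fold was above 0 for 13 members and below 0 for 14, against 51.7% of all genes above 0. By the quasi-likelihood test of edgeR, adjusted after Benjamini and Hochberg over all genes, 0 of the 27 passed a threshold of 0.05, with a smallest adjusted p of 0.958. The same test called 0 of all 7248 genes (0%). At an unadjusted p under 0.05 there were 0 members, against 358 of all genes (4.94%). DESeq2 called 0 members and 135 of all genes (1.86%).

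Together the 41 members made up 0.274% and 0.211% of gene reads in NonA RNAi replicates 1 and 2, and 0.226% and 0.261% in control replicates 1 and 2. The groups overlapped, and the highest and the lowest of these shares both belonged to the libraries labelled NonA RNAi. Pdf is in the total of each library, at 8.66% in NonA RNAi replicate 2. The order of the shares holds only with Pdf in the total, and the shares were not calculated without it. The intervals of the single genes were wide compared with the differences. All 27 of the 95% intervals of the log2 fold held 0, and over the members they reached from -1.79 to 1.77. A missed threshold here does not show that a subunit's level was the same in both groups.

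**Figure D1:**
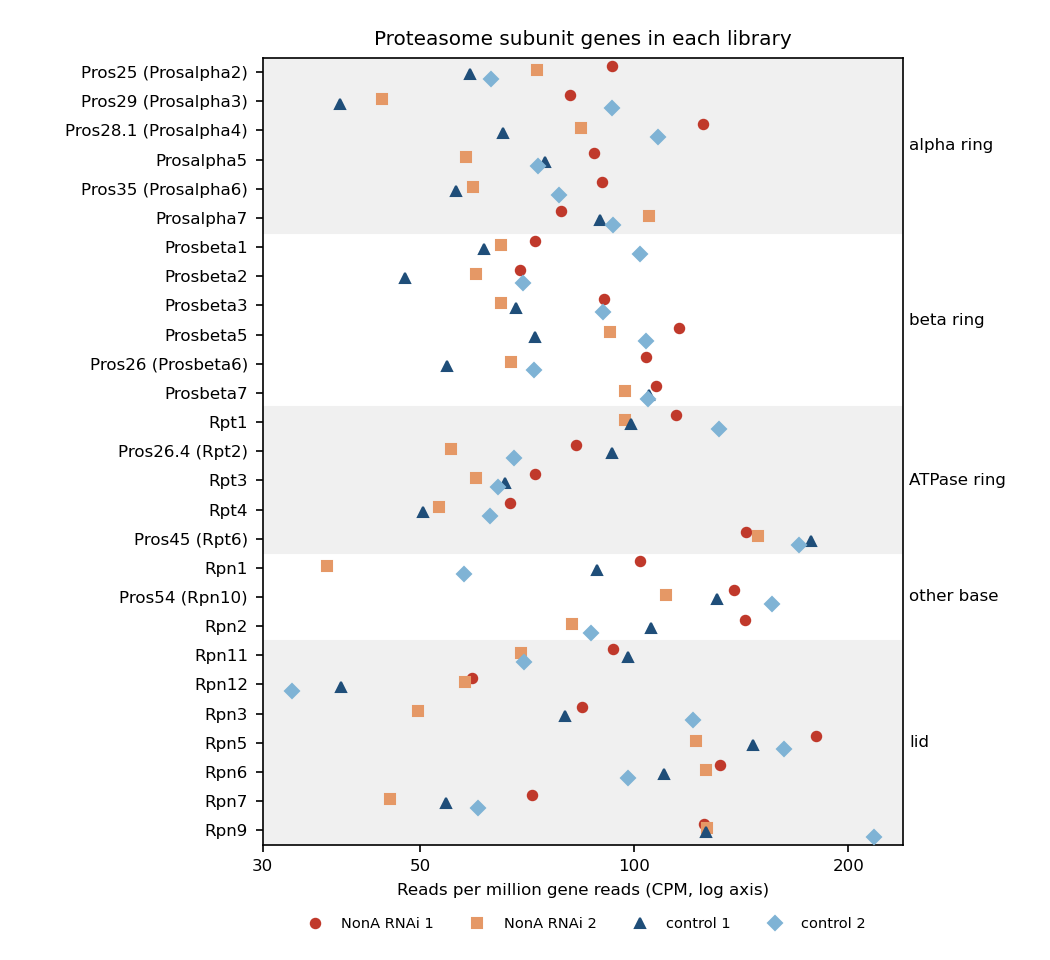
Level of each tested proteasome gene in each library, in CPM on a log axis, by part of the complex; each point is 1 library, and the current RefSeq name stands in brackets where it differs from the name in the files. The 2 NonA RNAi and the 2 control libraries are interleaved for 23 of the 27 genes.

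The proteolytic activity sits in 3 of the beta subunits. Prosbeta1, the caspase-like site, measured 72.5 and 65.0 CPM in NonA RNAi replicates 1 and 2, against 61.4 and 102 CPM in control replicates 1 and 2. Prosbeta2, the trypsin-like site, had 69.1 and 59.9 CPM against 47.6 and 69.8 CPM. Prosbeta5, the chymotrypsin-like site, had 116 and 92.5 CPM against 72.5 and 104 CPM. In all 3 genes the groups overlapped, and control replicate 1 was the lowest library. Their log2 folds were -0.25 with a standard error of 0.45, 0.14 with 0.44 and 0.24 with 0.43, with adjusted p-values in edgeR of 0.986, 0.991 and 0.986. The 95% intervals of the fold itself ran from 0.389 to 1.83 for Prosbeta1, from 0.519 to 2.33 for Prosbeta2 and from 0.563 to 2.47 for Prosbeta5. Each interval holds a fold of 1.

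Of the beta subunits without a proteolytic site, Prosbeta7 was the steadiest. It had 107 and 96.9 CPM in NonA RNAi replicates 1 and 2, and 105 CPM in each control. Pros26, named Prosbeta6 in RefSeq, had 104 and 67.0 CPM against 54.5 and 72.2 CPM; the fitted log2 fold was 0.43 (standard error 0.46, adjusted p in edgeR 0.958). NonA RNAi replicate 1 alone lay above both controls for this gene. Prosbeta3 had 90.8 and 64.9 CPM against 68.2 and 90.4 CPM, and had a fitted log2 fold of -0.03. Of the 6 tested beta genes 3 had a fold above 0 and 3 below, and 0 were separated between the groups in either direction.

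Among the alpha subunits, Pros25, which is Prosalpha2 in RefSeq, was the 1 gene whose groups did not overlap. NonA RNAi replicates 1 and 2 had 92.9 and 73.0 CPM of it, control replicates 1 and 2 58.8 and 62.7 CPM. The fitted log2 fold was 0.45 (standard error 0.41, adjusted p in edgeR 0.958). Pros29 (Prosalpha3), whose amino-terminal tail helps to close the gate of the core in yeast, varied most of the alpha genes within the groups, with 81.2 and 44.2 CPM against 38.6 and 93.0 CPM. Without control replicate 2 its log2 fold of -0.07 became 0.70, and without NonA RNAi replicate 1 it became -0.57. Pros28.1 (Prosalpha4) had 125 and 84.2 CPM against 65.3 and 108 CPM, and a log2 fold of 0.27 (standard error 0.48, adjusted p in edgeR 0.984). Pros35 (Prosalpha6) had 90.0 and 59.4 CPM against 56.1 and 78.3 CPM. Pros28.1 and Pros35 both had their highest value in NonA RNAi replicate 1 and their lowest in control replicate 1. Prosalpha5 had 87.7 and 58.0 CPM against 74.8 and 73.2 CPM. Prosalpha7 had 78.9 and 105 CPM against 89.3 and 93.2 CPM, and is the 1 tested member whose highest value was in NonA RNAi replicate 2. The remaining alpha gene, Prosalpha1, was listed at 0 in all 4 libraries. Its neighbour CG30382, named Prosalpha1R in RefSeq, was listed at 0 as well. The files keep reads that align to several places apart from all genes, and whether reads of these paralogues were among them was not tested. A count of 0 for Prosalpha1 is therefore not a statement about its expression.

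The ATPases of the base form a ring of Rpt subunits. Pros45, which is Rpt6, was the most abundant of the ATPase genes and the 1 member that lay below both controls: 143 and 149 CPM in the NonA RNAi libraries, against 177 and 170 CPM in the controls. The fitted log2 fold was -0.25 (standard error 0.40, adjusted p in edgeR 0.979). It was also among the most stable under single libraries left out, with a log2 fold between -0.27 and -0.22. Most of the span of this gene overlaps CG1801 on the opposite strand in the Ensembl annotation, and overlap of exons was not examined. The use of strand in the counting is not given in the sources used here. Ambiguous reads are kept apart from all genes, and whether reads of CG1801 were counted for Pros45 was not tested. Rpt3 had 72.5 and 59.8 CPM against 65.8 and 64.4 CPM, and Rpt4 had 66.9 and 53.2 CPM against 50.5 and 62.6 CPM. Pros26.4, which is Rpt2, had 82.7 and 55.2 CPM against 93.0 and 67.7 CPM, and a log2 fold of -0.22 (standard error 0.45, adjusted p in edgeR 0.987). For Rpt1 the values were 114 and 96.9 CPM against 99.1 and 132 CPM. Rpt1 lies wholly inside the span of CG17985 on the same strand, and whether reads of CG17985 were counted for it was not tested. The log2 folds of the 5 tested ATPase genes lay between -0.25 and 0.09.

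The other base subunits among the members are the large scaffolds Rpn1 and Rpn2 and the ubiquitin receptor Rpn10, listed as Pros54. Rpn1 had the widest spread between the NonA RNAi libraries of all tested members, at 102 and 36.9 CPM, against 88.6 and 57.7 CPM in the controls. The NonA RNAi libraries were thus both the highest and the lowest for this gene. Its log2 fold of -0.08 had a standard error of 0.61, and without NonA RNAi replicate 1 it was -0.99. With Pdf in the total, Rpn2 had the same order of libraries, at 143 and 81.7 CPM against 105 and 86.8 CPM. Pros54 had 138 and 111 CPM against 131 and 156 CPM.

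The lid held both extremes of the fold. Rpn12, a scaffold subunit of the lid, measured 59.1 and 57.7 CPM in NonA RNAi replicates 1 and 2, and 38.7 and 33.0 CPM in control replicates 1 and 2. The replicates lay close together and the groups apart: the means were 58.4 ± 0.996 CPM and 35.8 ± 4.08 CPM (SD, n = 2 each). The log2 fold of 0.71 had a standard error of 0.43, with a 95% interval from -0.36 to 1.77, and it missed the threshold in edgeR (adjusted p 0.958). Over the libraries left out, its log2 fold stayed between 0.59 and 0.83. Rpn6, a subunit that braces core and regulatory particle, had 132 and 126 CPM against 110 and 97.9 CPM, also without overlap, and its log2 fold was 0.31 (standard error 0.40, adjusted p in edgeR 0.975). Part of Rpn6 overlaps the gene ave on the opposite strand.

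At the other end, Rpn3 had 84.5 and 49.5 CPM in the NonA RNAi libraries, against 79.8 and 121 CPM in the controls. NonA RNAi replicate 2 was lowest and control replicate 2 highest, and the groups overlapped. The fitted log2 fold was -0.58 (standard error 0.49, adjusted p in edgeR 0.958). Rpn9 had 125 and 127 CPM against 126 and 217 CPM, so that control replicate 2 alone stood apart. Its log2 fold of -0.45 (standard error 0.46, adjusted p in edgeR 0.958) became 0.00 without that library. Rpn11, the deubiquitinase of the lid, had 93.2 and 69.2 CPM against 98.0 and 69.9 CPM, a high and a low library in each group, and its log2 fold was -0.05. Rpn5 had 180 and 122 CPM against 147 and 163 CPM, and Rpn7 had 71.7 and 45.3 CPM against 54.3 and 60.3 CPM. These 3 genes had log2 folds between -0.05 and 0.03.

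**Figure D2:**
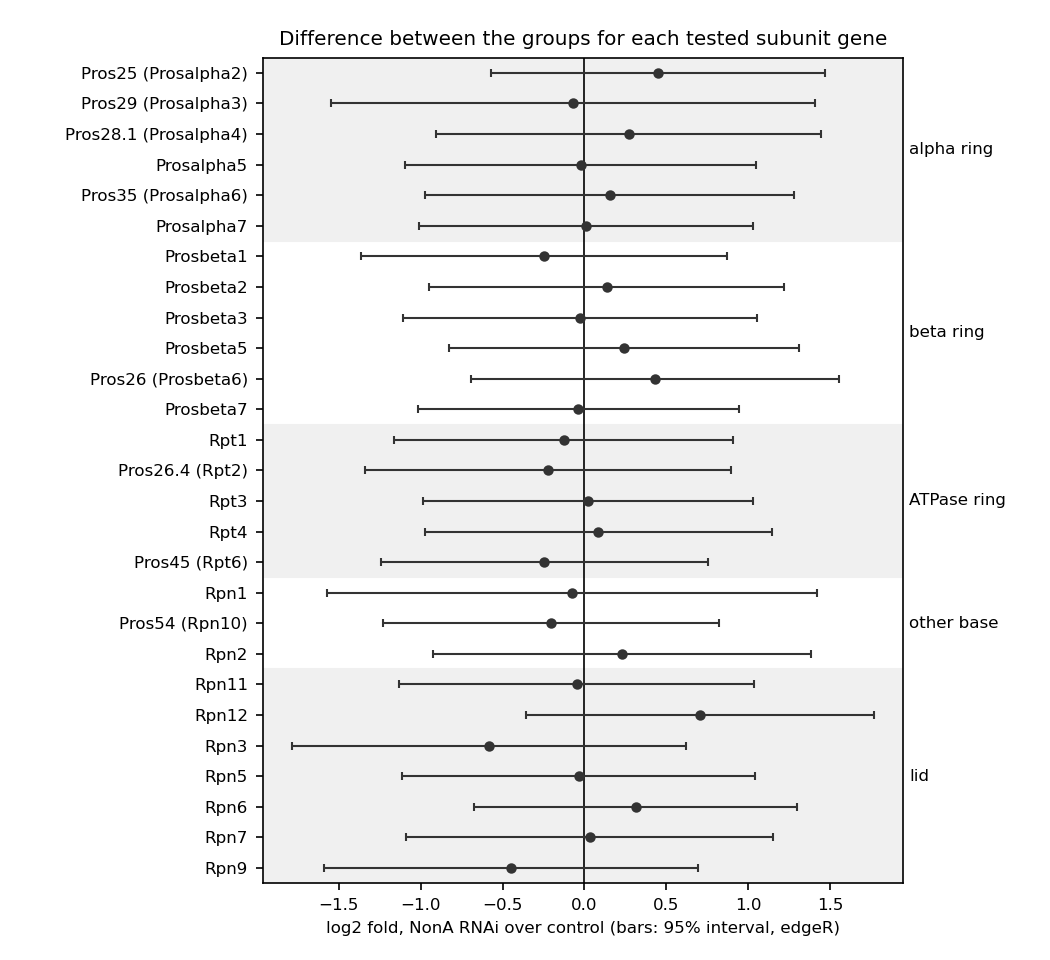
Fitted log2 fold, NonA RNAi over control, of each tested proteasome gene with its 95% interval from edgeR, by part of the complex. Points run from -0.58 for Rpn3 to 0.71 for Rpn12, and all 27 intervals hold 0.

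In total, 3 of the 27 tested members (Pros25, Rpn6 and Rpn12) lay above both controls in both NonA RNAi libraries, and 1 (Pros45) lay below both. Over all genes tested the same separations held for 15.4% above and 16.7% below, so the members' 11.1% and 3.7% were not more than this background. For the remaining 23 members the groups overlapped. With TMM or median-of-ratios scaling between the libraries, 2 members lay below both controls in place of 1.

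Replicates of 1 group differed in the same direction for most subunits. NonA RNAi replicate 1 exceeded NonA RNAi replicate 2 for 24 of the 27 tested members, with a median log2 ratio of 0.34 beside 0.08 over all genes; 3832 of the 7248 genes had this direction. Control replicate 1 exceeded control replicate 2 for 10 of the 27 and for 3657 of the 7248 genes, with a median log2 ratio of -0.15 beside 0.01. The 3 members with the opposite order in the NonA RNAi libraries were Prosalpha7, Pros45 and Rpn9. Of the 27 members, 16 were highest in NonA RNAi replicate 1, 1 in NonA RNAi replicate 2, 3 in control replicate 1 and 7 in control replicate 2. NonA RNAi replicate 1 was the most frequent highest library over all genes as well: of the 7248, 2549 were highest there, 1290 in NonA RNAi replicate 2, 1805 in control replicate 1 and 1604 in control replicate 2. The lowest value was in NonA RNAi replicate 2 for 13 members and 1784 of all genes, and in control replicate 1 for 9 members and 1789 of all genes. These orders hold for CPM with Pdf in the total.

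The direction of the set differed with the library left out. Without NonA RNAi replicate 1, 7 of the 27 members had a fold above 0 and the median log2 fold was -0.23, beside -0.10 over all genes. Without NonA RNAi replicate 2, 20 of the 27 had a fold above 0 and the median was 0.23, beside 0.02. Without control replicate 1 the median was -0.04 with 10 of 27 above 0, and without control replicate 2 it was 0.09 with 18 above 0, both beside 0.06 over all genes. The sign of the fold changed with 1 library left out for 18 of the 27 genes. A library left out moved 0 members past the threshold.

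In size, the members' folds were smaller than their ratios between replicates, as were those of all genes. A fold between groups of 2 libraries varies less than a ratio of 2 single libraries, so the sizes are not directly comparable. The absolute log2 fold had a median of 0.15 among the 27 members and 0.45 over all genes tested, and was 1 or more for 0 members and for 1527 of the 7248 genes. Between NonA RNAi replicates 1 and 2 the absolute log2 ratio had a median of 0.40 in the members and 0.64 over all genes, and between control replicates 1 and 2 one of 0.40 and 0.53. The members were also better covered, with a median of 78.6 CPM against 51.9 CPM over all genes tested, and whether their smaller ratios go with this was not tested.

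**Figure D3:**
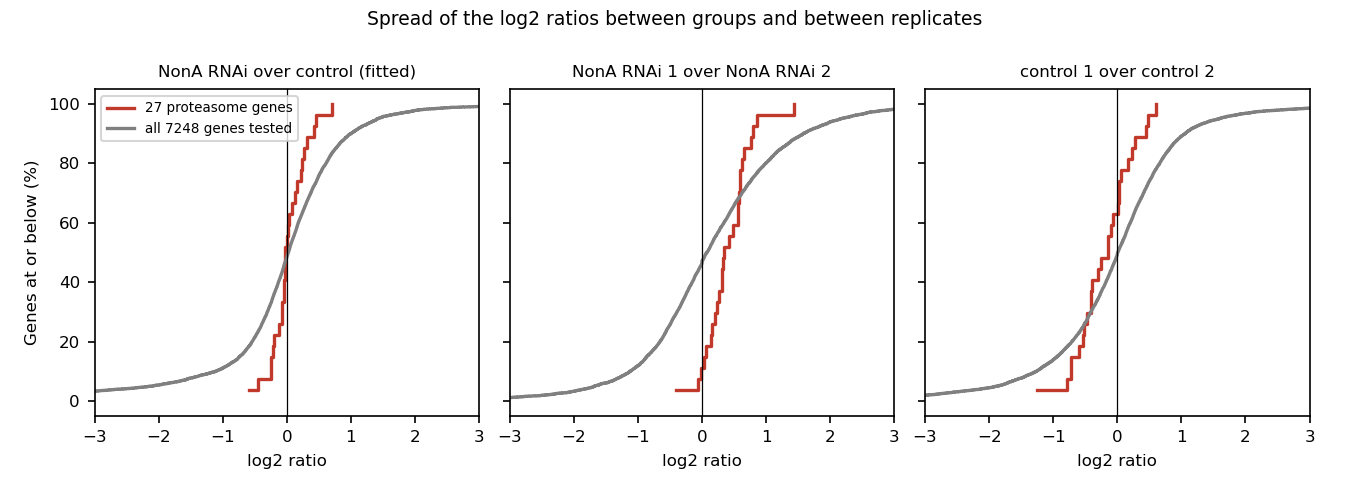
Cumulative share of genes by log2 ratio for the 27 tested proteasome genes and all 7248 genes tested: the fitted fold between the groups at the left, NonA RNAi replicate 1 over 2 in the middle and control replicate 1 over 2 at the right, the last 2 on log2(CPM + 1) values; the axes are limited to ratios between -3 and 3. The proteasome line is steeper than that of all genes between the groups, and in the middle panel it lies mostly to the right of 0, where 24 of the 27 members are.

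Since the subunits join in fixed proportions in the complex, their levels were also set against each other per length, as CPM per kilobase of exon, using exon lengths from the Ensembl BDGP6 annotation. On this scale the 27 genes spanned a factor of 3.29 and 8.84 between the lowest and the highest in NonA RNAi replicates 1 and 2, and of 4.33 and 6.82 in control replicates 1 and 2. The median was 80.8 and 63.9 CPM per kilobase in the NonA RNAi libraries and 57.8 and 76.5 CPM per kilobase in the controls. Rpn1 was the lowest in every library, at 33.5 and 12.1 CPM per kilobase against 29.1 and 19.0. The highest was Pros26 in NonA RNAi replicate 1, Prosalpha7 in NonA RNAi replicate 2, Pros45 in control replicate 1 and Rpn9 in control replicate 2. In the mean of the 4 libraries the order at the top was Pros45 at 114, Pros54 at 94.2 and Prosalpha7 at 93.8 CPM per kilobase, and at the bottom Rpn1 at 23.4, Rpn2 at 30.6 and Rpt4 at 39.8. The place of Pros45 is uncertain, since whether reads of CG1801 were counted for it was not tested. By gene span in the annotation, 12 of the 27 tested members overlap another gene, some by few bases, and the part of this in the order was not tested. Rpn1 and Rpn2 have the longest exon lengths of the tested members, 3041 and 3412 bases; how the amplification treats long RNAs was not tested.

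By part of the complex, the median of the mean levels was 77.9 CPM per kilobase for the 6 tested alpha genes and 84.8 for the 6 beta genes. It was 45.9 for the 5 ATPase genes, 59.9 for the 7 lid genes and 30.6 for the 3 other base genes. The alpha genes lay between 66.0 and 93.8 and the beta genes between 59.6 and 88.2, a narrower range than the 39.8 to 114 of the ATPase genes, where 114 is Pros45. Across the 27 genes the Pearson correlation of log2 levels per kilobase lay between 0.759 and 0.879 for the 6 pairs of libraries, and the Spearman correlation between 0.650 and 0.780. Between the NonA RNAi libraries these were 0.879 and 0.780, and between the controls 0.781 and 0.712. All pairs share the same exon lengths, and genes are not independent replicates.

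**Figure D4:**
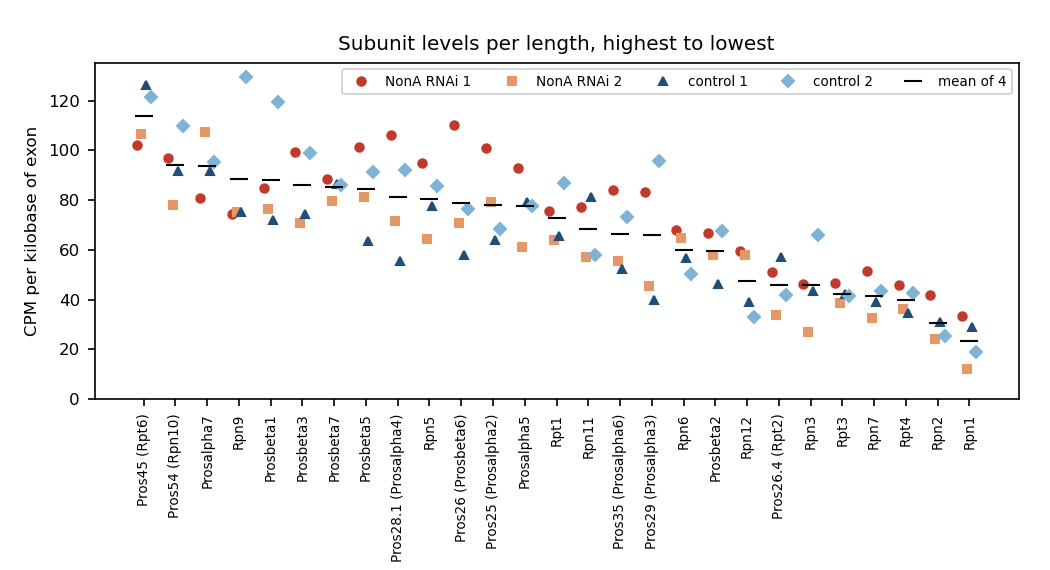
Level of the 27 tested proteasome genes in CPM per kilobase of exon, ordered by the mean of the 4 libraries; points are single libraries and dashes their mean. The means run from 114 for Pros45, whose span overlaps that of CG1801, to 23.4 for Rpn1. For 23 of the 27 genes the libraries of both groups overlap.

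The balance of core and regulatory particle was calculated after the values had been seen. The summed level of the 13 core genes was 1115 and 870 CPM in the NonA RNAi libraries and 792 and 1051 CPM in the controls. Prosalpha1 entered this sum, and each ratio below, at its listed count of 0. The summed level of the 15 regulatory genes was 1609 and 1240 CPM against 1464 and 1559 CPM. The ratio of core to regulatory CPM was 0.693 and 0.701 in NonA RNAi replicates 1 and 2 and 0.541 and 0.674 in control replicates 1 and 2. The groups did not overlap in this ratio, but the controls lay farther from each other than control replicate 2 lay from either NonA RNAi library. With the 5 further subunits described next included, the ratio was 0.587 and 0.612 in the NonA RNAi libraries against 0.457 and 0.590 in the controls, and the groups overlapped. Summed per kilobase of exon over the same genes it was 0.921 and 0.907 against 0.699 and 0.862, without overlap.

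A further 5 subunits of the 33 in the complex carry other names in the files, so the symbol rule passed them over. CG17331 (Prosbeta4) had 91.0 and 80.2 CPM in the NonA RNAi libraries, against 59.9 and 117 CPM in the controls. Tbp-1 (Rpt5) had 122 and 79.3 CPM against 106 and 98.8 CPM, and Mov34 (Rpn8), the partner of Rpn11 in the lid, had 128 and 75.7 CPM against 83.1 and 72.9 CPM. The ubiquitin receptor CG13349 (Rpn13) had 152 and 106 CPM against 161 and 157 CPM. CG13779 (Sem1), the smallest lid subunit, had 42.6 and 51.3 CPM against 51.3 and 93.2 CPM. CG13349 and CG13779 lay below both controls, as did 16.7% of all genes, though NonA RNAi replicate 2 and control replicate 1 had the same rounded level of CG13779. Of these 5 genes 1 had a fold above 0 and 4 below, with log2 folds from -0.62 for CG13779 to 0.38 for Mov34, and 0 passed edgeR's test, with a smallest adjusted p of 0.958.

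The paralogues had few reads or none in these libraries. Of the 13, 7 had no read in any library: Prosalpha3T, Prosalpha6T, Prosbeta2R1, Prosbeta2R2, Prosbeta4R1, Prosbeta4R2 and Prosbeta5R. Genes whose symbol ends in T are known from the testis of the fly. All 13 together made up 0.765% and 0.155% of the members' reads in the NonA RNAi libraries and 0.126% and 0.179% in the controls. Rpt3R, a paralogue of the ATPase Rpt3, had 119 and 12 reads in NonA RNAi replicates 1 and 2 and 0 in both controls. With a floor of 3 reads in each control library this is at least 20.7-fold higher in mean CPM, but NonA RNAi replicate 1 supplied 90.8% of the Rpt3R reads, and without that library the bound was at least 4.24-fold higher. Without the filter on low values, where it was tested, its unadjusted p was 0.0178 and its adjusted p 0.449 in edgeR. Rpt4R had 35 reads, all in NonA RNAi replicate 1. Rpt6R had 17 and 0 reads against 0 and 25, Rpn12R 24 and 16 against 0 and 12, Pros28.1A 8 and 0 against 0 and 9, and Pros28.1B 0 and 0 against 24 and 0. By gene span, Rpn12R lies inside Sytbeta on the same strand and Pros28.1A inside CG42322 on the opposite strand. Whether reads of Sytbeta and CG42322 were counted for these paralogues was not tested. Of these 6 paralogues, Rpt4R and Pros28.1B thus had reads in 1 library each, and 0 had reads in all 4. Of the 8 male germ line markers, 7, 6, 7 and 4 were at 0 in NonA RNAi replicates 1 and 2 and control replicates 1 and 2. Their summed level was 6.82 and 3.04 CPM in the NonA RNAi libraries and 15.3 and 8.75 CPM in the controls. In NonA RNAi replicate 1 all of this was bam, and its part in the paralogue reads was not tested.

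Of the 9 listed genes that assemble or regulate the proteasome, 5 had a fold above 0 and 4 below, with a median log2 fold of 0.13; 2 (22.2%) lay above and 1 (11.1%) below both controls, beside 15.4% and 16.7% over all genes, and 0 passed edgeR's test. Pomp, the chaperone that matures the core particle, measured 139 and 183 CPM in NonA RNAi replicates 1 and 2, against 257 and 155 CPM in control replicates 1 and 2. CG8979 (PI31), a proteasome-binding regulator, had 95.6 and 111 CPM against 99.8 and 154 CPM. REG, a cap of the core particle that works without ATP, had 91.9 and 88.3 CPM against 68.4 and 96.8 CPM. By smallest unadjusted p the list was led by CG12096, at 51.0 and 39.3 CPM against 7.60 and 26.0 CPM; the fitted log2 fold was 1.42 (standard error 0.71). CG8858 had 99.1 and 43.2 CPM against 26.5 and 54.3 CPM. The deubiquitinase Uch-L3 (Uch-L5 in RefSeq) followed, at 14.2 and 18.2 CPM against 11.4 and 5.59 CPM, above both controls. CG5384 (Usp14), another deubiquitinase at the proteasome, was the gene below both, at 142 and 139 CPM against 170 and 199 CPM.

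Upstream of the proteasome, 10 of 12 ubiquitin, shuttle and unfolding genes had a fold above 0, beside 51.7% of all genes, with a median log2 fold of 0.25, and 0 passed edgeR's test. The groups overlapped for 8 of the 12, while 3 (25%) lay above and 1 (8.33%) below both controls, beside 15.4% and 16.7% of all genes. Ubi-p63E, Ubqn, TER94 and p47 counted as above 0 though NonA RNAi replicate 2 lay below both controls in CPM with Pdf in the total. The log2 fold of p47 was 0 when rounded. CG4420 (rngo), a shuttle protein that carries ubiquitinated cargo, measured 36.7 and 44.5 CPM in NonA RNAi replicates 1 and 2, against 16.6 and 24.0 CPM in control replicates 1 and 2, which is 1 on the log2 scale (standard error 0.51, adjusted p in edgeR 0.943). Uba1, the enzyme that activates ubiquitin, had 636 and 254 CPM against 238 and 249 CPM, so that the separation rested on NonA RNAi replicate 1. The polyubiquitin gene Ubi-p5E had 745 and 1384 CPM against 1772 and 1722 CPM, below both controls; its log2 fold was -0.71 (standard error 0.52). Ubi-p63E, the other polyubiquitin gene of the list, had 441 and 227 CPM against 325 and 230 CPM. Reads from repeated ubiquitin units can align to several places, so the levels of both genes are uncertain. The 4 regulators of proteasome gene transcription had log2 folds between 0.04 and 0.91, and in each of them NonA RNAi and control overlapped. They include cnc, whose protein activates proteasome genes, with 299 and 138 CPM against 168 and 201 CPM. Keap1, the inhibitor of cnc, had 43.4 and 27.0 CPM against 6.30 and 31.0 CPM.

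Markers of other cell types also differed between the libraries. The summed level of 7 glial markers was 364 and 1838 CPM in NonA RNAi replicates 1 and 2, against 1603 and 5813 CPM in control replicates 1 and 2; none of them was at 0 in any library. Gs2 alone was 3932 CPM in control replicate 2. For 8 fat body and hemocyte markers the sum was 1.34 and 265 CPM against 1206 and 249 CPM, with 7, 4, 1 and 3 of them at 0 in that order of libraries. In NonA RNAi replicate 2 it was mostly Hml (220 CPM) and nimC1 (43.8 CPM), while Lsp2, Lsp1alpha, Lsp1beta and fit had 0 in both NonA RNAi libraries. For 10 photoreceptor markers the sum was 132 and 253 CPM against 363 and 503 CPM, with 4, 0, 1 and 0 at 0. Of this, norpA alone was 71.7 and 182 CPM against 143 and 171 CPM. In bulk RNA, fewer cells of a type and less RNA per cell cannot be told apart. The proteasome is present in all of these cell types, and the part of the markers' differences in the subunit levels was not tested.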

How the data were processed

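RNA of dvpdf neurons was read in 4 libraries. Per the submitters' processing notes, TopHat2 2.1.1, Cufflinks without a version and build dm3 were used; for the counting program, the annotation and strandedness nothing is stated in the labels or headers. Each file, per the file headers, holds what the authors deposited: raw read counts per gene, a length, RPM and RPKM. The deposited RPM, a depth-scaled signal over gene, featureless and ambiguous reads, was not used. The deposited RPKM served only for the filter: a mean of at least 1 or, for 188 tested genes without a length, a mean CPM of at least 1.

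Counts were scaled to the sum of gene entries with no further factor. Entries naming no gene stayed out of totals and tests: reads aligned to several places made up between 45.2% and 55.6% of all entries, featureless reads between 27.8% and 32.5% and gene reads between 15.9% and 22.0%. NonA RNAi was set against control by the two-sided quasi-likelihood test of edgeR 4.0.16, run in R 4.3.3 over 7248 genes. The common dispersion was 0.352. Standard errors are the absolute log2 fold over the root of F. DESeq2 1.42.0, other scalings, other filters, the replicate number as a block and each library left out were alternatives. The scripts were tested on simulated data.

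Members and lists were chosen with earlier results of these data known. Full statistics are given for the catalytic subunits and the 5 highest and 5 lowest folds. RefSeq Release 6 matched 13937 gene symbols and gave current names and chromosomes only. Ensembl BDGP6 gave exon lengths and overlaps for all 41 members, and the neighbour of Prosalpha1. No sequence is shown and promoter motifs were not analysed here. Replicate libraries correlated at 0.826 (NonA RNAi) and 0.817 (control) on log2(CPM + 1).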

Additional observations from a re-analysis of the deposited data

How the results depend on the processing

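No alternative called a proteasome member: over the 10 alternatives 0 passed, in fits that tested 27 members or, without the filter on low values, 33. The number of genes called over all genes was 0 with all libraries and edgeR, 79 without the filter (10 higher, 69 lower), 135 with DESeq2 and between 0 and 30 with a library left out. Members above both controls numbered 3, and 5 of the 33 without the filter, beside 14.2% of all genes in that fit. The added members were the paralogues Rpt3R and Rpn12R, both with few reads. With a library left out the number was between 3 and 16. The 16 of 27, without NonA RNAi replicate 2, stand beside 40.3% of all genes. Members below both controls numbered 1, 2 with TMM or median-of-ratios scaling, beside 15.5% and 16.7% of all genes, and between 3 and 14 with a library left out; the 14 of 27, without NonA RNAi replicate 1, stand beside 35.3% of all genes. The median log2 fold of the members lay between -0.23 and 0.23 with a library left out, and between -0.05 and -0.01 under the others. Libraries of equal replicate number shared no deviation from their group means over genes (correlation -0.008). Whether they were prepared in pairs is not given in the labels. With the replicate block 0 genes were called, the median was -0.01, and the folds of Prosalpha7 and Rpn7 turned to -0.01 and 0.00.

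With a library left out, 18 log2 folds changed sign. Their ranges were -0.54 to 0.04 for Pros26.4, -0.05 to 0.68 for Pros28.1, -0.57 to 0.70 for Pros29, -0.18 to 0.42 for Pros35, -0.35 to 0.24 for Prosalpha5, -0.21 to 0.20 for Prosalpha7, -0.57 to 0.16 for Prosbeta1, -0.11 to 0.44 for Prosbeta2, -0.29 to 0.19 for Prosbeta3, -0.11 to 0.03 for Prosbeta7, -0.99 to 0.48 for Rpn1, -0.28 to 0.22 for Rpn11, -0.23 to 0.58 for Rpn2, -0.34 to 0.22 for Rpn5, -0.34 to 0.32 for Rpn7, -0.32 to 0.09 for Rpt1, -0.12 to 0.15 for Rpt3 and -0.09 to 0.25 for Rpt4. The cause was not tested. Where an arm had 1 library, it was assumed to vary like the other group. The scaling moved the median of all genes by at most 0.02.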
